A study of Mus musculus with 9 samples.

Results

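Endosomes and transport vesicles are built and steered by a small number of protein families, and their transcripts were followed here in mouse kidney tumours and normal kidney cortex. The members are all genes of the count table whose symbol starts with Rab, Arf, Vps, Snx, Stx or Vamp and a digit, with Chmp and a digit, or with Ap1 to Ap4 and the letter of an adaptor subunit. They numbered 148 of 14052 genes: 50 Rab, 29 Vps, 25 Snx, 21 Ap, 11 Stx, 6 Chmp, 3 Arf and 3 Vamp genes. Of these, 114 held enough reads to be tested, among 7020 tested genes in all. The rule goes by symbol alone, so it also takes in a few genes with other work, such as Vps72, a subunit of chromatin remodelling complexes, and Rab5if, which is no Rab GTPase.

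RNA was sequenced from 9 pieces of renal cortex of mice kept on a normal diet to an age of about 1 year. The 5 tumour areas (L4 and R2 to R5) came from Vhl F/F Pbrm1 F/F Ksp-Cre mice on a mixed background of C57BL/6, BALB/c and 129. Cre under the Ksp (Cdh16) promoter acts in tubule epithelium, so stroma, vessels and immune cells keep both genes. The 4 normal areas (L1, L2, R1 and R2) came from cortex of wild-type C57BL/6 mice. The descriptions of each group carry a single number, so each group may be 1 animal. The p-values then measure the spread between areas of that animal, and genotype, strain and animal cannot be told apart.

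Cargo taken up in clathrin coats, which the AP-2 adaptor links to receptors, first reaches early endosomes, where Rab5 GTPases recruit tethers and lipid kinases. From there retromer, retriever and sorting nexins return receptors to the surface or the Golgi, while ESCRT complexes pinch receptors bound for destruction into the endosome and the HOPS tether joins late endosomes to lysosomes. Syntaxins and VAMPs are SNAREs, the proteins that fuse the membranes, and AP-1 and AP-3 sort cargo at the Golgi and on endosomes. In the kidney this traffic is known for the proximal tubule, which takes up filtered protein through megalin and cubilin.

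Values are CPM, the field's per-library scaling of read counts, here with edgeR's TMM factors. Values per area are given in the order L4, R2, R3, R4, R5 for tumour and L1, L2, R1, R2 for normal areas. A value after ± is an SD over areas for a CPM mean (5 tumour, 4 normal) and a standard error for a log2 fold change (tumour over normal). A gene passed the test, or was called, at a Benjamini-Hochberg adjusted p under 0.05 over all tested genes in edgeR's quasi-likelihood test. Counted reads ran from 5143527 to 8250261 per area, at which 3 counts, the limit that a 0 allows for counting error, make 0.409 to 0.649 CPM. Vhl stood at 45.1 to 75.7 CPM in tumour and 97.7 to 108 CPM in normal areas, and Pbrm1 at 106 to 162 against 141 to 164 CPM.

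Cell types moved with the groups. The summed level of 10 proximal tubule markers was 24599 to 45042 CPM in tumour and 56263 to 58196 CPM in normal areas, with 8 of 10 called lower. That of 8 distal nephron markers was 1536 to 6889 against 10804 to 11012 CPM (7 called lower, Umod not called). Leukocyte markers summed to 1427 to 3340 against 124 to 146 CPM (8 of 9 tested called higher, Ptprc and Cd2 at 0) and fibroblast markers to 873 to 2744 against 214 to 232 CPM (5 of 7 called higher, and Pdgfra and Pdgfrb lower). Endothelial markers summed to 561 to 664 against 954 to 997 CPM. Of these, 3 of 4 tested were called lower, and Cdh5 was not called, at 160 ± 29.1 against 154 ± 1.77 CPM. The sum of urothelial markers was 1158 CPM in tumour L4, lay between 28.5 and 220.4 CPM in R2 to R5 and was 0.997 to 5.46 CPM in normal areas (7 of 7 tested called higher, Krt14 at 0). The 2 fat markers summed to 0.336 to 144 CPM, highest in L4, against 1.62 to 6.41 CPM. Plin1 gave 139 CPM of the sum in L4, was the only fat marker tested and was not called. The 4 neuron markers summed to 1.01 to 1.89 against 2.82 to 4.33 CPM, and only Syp was tested, which was called lower. In bulk tissue, fewer cells of a type and less RNA per cell cannot be told apart, and the part of cell makeup in the results below was not tested.

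Of the 114 tested traffic genes, 38 were higher in the tumour areas (33.3%), against 39.3% of all tested genes, and 39 were lower (34.2%), against 35.3%. Together 77 were called (67.5%), against 74.6% of all tested genes. Changes of at least 2-fold were called in 12 (10.5%), 6 each way, against 29.9%, and the areas of the groups did not overlap in 62 (54.4%), against 67.8%. The median log2 fold change was 0.01 over the members and 0.06 over all tested genes, and the median size of a change, without its sign, 0.39 against 0.59. When areas were scaled by library size alone, 60 members were higher and 21 lower, since that scaling moved the median of all tested genes from 0.06 to 0.35. Higher genes then made up 74.1% of the called members in place of 49.4%, and 68.9% of all called genes in place of 52.7%.

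**Figure D1:**
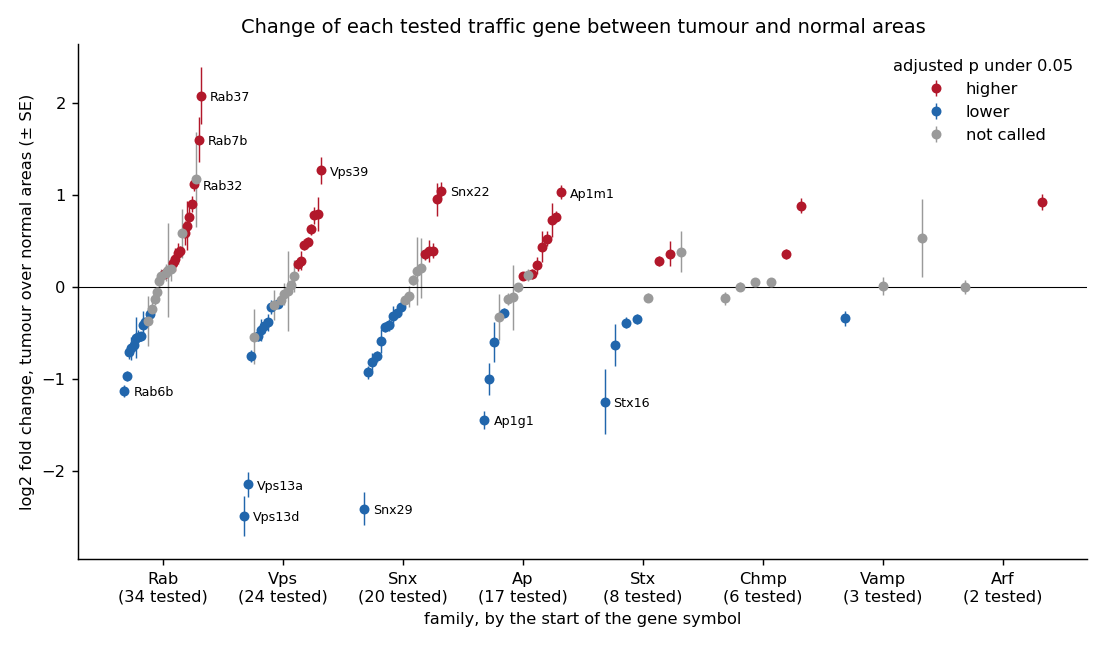
Log2 fold change (y axis, tumour over normal areas, bars ± SE) of each of the 114 tested genes, set out by family (x axis) and coloured by call. Named points changed at least 2-fold, from Vps13d at -2.48 to Rab37 at 2.08, and most points lie between -1 and 1.

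By family, the counts of higher and lower calls were 12 and 11 of 34 Rab genes, 8 and 9 of 24 Vps genes, 5 and 10 of 20 Snx genes and 8 and 4 of 17 Ap genes. Of 8 Stx genes 2 were higher and 4 lower, of 6 Chmp genes 2 and 0, of 3 Vamp genes 0 and 1, and of 2 Arf genes 1 and 0. With library size alone, lower calls no longer led in any family: Rab became 20 and 7, Vps 10 and 4, Snx 7 and 7, Ap 11 and 2, Stx 4 and 1, Chmp 5 and 0, Vamp 1 and 0 and Arf 2 and 0. The 8 higher Ap calls became 4 without normal L1 or R2 and 5 without tumour R2 or normal L2 or with RLE factors. The 2 higher Stx calls became 1 without tumour L4 or R5 or normal L1 or L2, with DESeq2 and with the area letter (L or R) as a covariate. Leaving out 1 area also gave 1 lower Chmp gene (tumour R2) and 1 higher Vamp gene (normal R2).

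The other 34 genes were too low to test. Of these, 15 had no count in any area, among them Arf1, Rab1a and Snx3, which most cells use. A listed 0 is therefore no sign of a silent gene. The rest held 1 to 66 counts over the 9 areas, among them Rab7 (16 counts), Rab5c (17), the HOPS and CORVET subunits Vps16 (44) and Vps18 (65) and the ESCRT-II subunit Vps25 (66). The lowest total of a tested member was 86 counts.

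Promoters of the family were searched for TCACGTGA, the E-box core of the element through which the MiT family (TFEB, TFE3, MITF) is known to act on lysosome genes. RefSeq promoter windows (GRCm38.p6, 250 bases before to 50 after each start) matched 113 of the 148 genes, with 145 windows. TCACGTGA, which reads the same on both strands and contains the shorter E-box CACGTG, lay in 8 of these windows (5.52%), against 0.974% of all 32851 windows and 1.98% of the windows of tested genes. CACGTG lay in 13.1% of members' windows, against 7.15% of all and 10.04% of those of tested genes. The 8 windows belong to 7 genes. Of these, Rab24 and Stx6 were higher, Rab5a, Rab21 and Vps33a lower, Vps26a not called and Vps16 not tested, so genes with these letters stood on both sides. The windows of the 5 called genes are shown 5′ to 3′ on the gene's strand, with TCACGTGA in capitals.
Rab5a (chr17:53478984-53479283, plus strand): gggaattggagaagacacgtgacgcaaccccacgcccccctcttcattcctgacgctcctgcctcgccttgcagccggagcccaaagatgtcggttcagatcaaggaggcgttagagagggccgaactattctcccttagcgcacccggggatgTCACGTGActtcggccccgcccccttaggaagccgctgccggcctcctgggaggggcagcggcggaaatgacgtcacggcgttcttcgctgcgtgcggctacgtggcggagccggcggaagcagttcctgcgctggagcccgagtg
Rab21 (chr10:115315542-115315841, minus strand): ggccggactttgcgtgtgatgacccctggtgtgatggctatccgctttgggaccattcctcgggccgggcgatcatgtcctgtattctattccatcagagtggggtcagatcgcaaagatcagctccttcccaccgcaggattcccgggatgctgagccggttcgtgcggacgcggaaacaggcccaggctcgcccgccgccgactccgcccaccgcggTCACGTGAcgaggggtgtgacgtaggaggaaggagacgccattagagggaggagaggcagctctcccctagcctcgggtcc
Vps33a (chr5:123572966-123573265, minus strand): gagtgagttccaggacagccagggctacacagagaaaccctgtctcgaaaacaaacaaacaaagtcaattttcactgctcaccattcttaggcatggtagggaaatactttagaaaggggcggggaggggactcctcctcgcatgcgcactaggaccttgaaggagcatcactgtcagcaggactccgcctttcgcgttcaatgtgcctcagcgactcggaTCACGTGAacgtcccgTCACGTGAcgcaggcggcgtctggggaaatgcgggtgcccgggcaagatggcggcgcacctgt
Rab24 (chr13:55321931-55322230, minus strand): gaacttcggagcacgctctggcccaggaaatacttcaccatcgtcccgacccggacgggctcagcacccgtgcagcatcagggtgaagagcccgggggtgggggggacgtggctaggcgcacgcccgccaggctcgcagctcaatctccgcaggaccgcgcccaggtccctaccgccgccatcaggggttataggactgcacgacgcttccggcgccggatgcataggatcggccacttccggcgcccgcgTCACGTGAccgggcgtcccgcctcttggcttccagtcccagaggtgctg
Stx6 (chr1:155158453-155158752, plus strand): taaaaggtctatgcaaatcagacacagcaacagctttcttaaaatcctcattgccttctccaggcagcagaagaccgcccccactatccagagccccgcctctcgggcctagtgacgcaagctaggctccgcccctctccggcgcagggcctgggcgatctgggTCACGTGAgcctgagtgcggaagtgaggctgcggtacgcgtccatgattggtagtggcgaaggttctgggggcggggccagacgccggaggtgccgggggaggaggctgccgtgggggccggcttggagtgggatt
The site began 96 bases before the start in Rab5a, 31 in Rab21, 29 (the first of 2 sites) in Vps33a and 86 in Stx6, and at base 2 after it in Rab24. A match of letters is a description and shows no binding.

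Among the Rab GTPases of early endosomes Rab5a, Rab5b and Rab21 fell and Rab31 rose, all 4 of those tested. Genes were put into these role groups after their values were seen, so the counts within a group are descriptions, to be read beside the 39.3% of all tested genes called higher and the 35.3% called lower. Rab5a (ENSMUSG00000017831), which drives fusion of early endosomes, stood at 133, 147, 142, 154 and 123 CPM in the tumour areas and 206, 206, 190.2 and 209 CPM in the normal areas. No tumour area reached the lowest normal area, and Rab5a was 1.45-fold lower (log2 fold change -0.54 ± 0.07, adjusted p = 4.21e-05). Rab5b, its close paralog, read 366, 349, 359.8, 390.2 and 348 against 530.1, 532, 511 and 527 CPM (log2 fold change -0.53 ± 0.05, adjusted p = 4.98e-06). The ratio of Rab5a to Rab5b did not differ detectably between the groups: its log2 ran from -1.499 to -1.24 over the tumour areas and from -1.42 to -1.33 over the normal areas (adjusted p = 0.921, exact permutation test). Rab21, which carries integrins inward, read 161, 179, 194, 206 and 182 against 293, 284, 278 and 287 CPM and fell most in L4 (log2 fold change -0.63 ± 0.07, adjusted p = 1.41e-05). Rab31, of endosome to Golgi traffic, went the other way, at 212, 173, 167, 130.1 and 163 against 135, 127, 127 and 134 CPM, with R4 level with the normal areas (log2 fold change 0.37 ± 0.11, adjusted p = 0.013). With library size alone the falls shrank to -0.25, -0.24 and -0.34 and still passed.

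Of the 5 tested Rab genes of late endosomes and lysosome-related organelles, Rab7b, Rab24, Rab32 and Rab38 rose and Rab27b did not pass. Rab32 (ENSMUSG00000019832), of mitochondria and lysosome-related organelles, read 106, 105, 114, 102 and 102 CPM in the tumour and 53.7, 49.2, 42.4 and 50.4 CPM in the normal areas, 2.17-fold higher (log2 fold change 1.12 ± 0.07, adjusted p = 4.86e-07). The 5 tumour areas lay close together and well above the normal ones. Rab38, its paralog in melanosome biogenesis, read 39.4, 54.9, 62.5, 56.3 and 45.4 against 36.1, 35.6, 31.2 and 34.2 CPM, with L4 nearest to normal (log2 fold change 0.59 ± 0.13, adjusted p = 0.002). Rab7b, of late endosome to Golgi transport, read 23.9, 15.6, 18.9, 10.5 and 19.8 against 7.57, 5.32, 4.98 and 5.67 CPM (log2 fold change 1.601 ± 0.24, adjusted p = 1.52e-04) and was lowest in R4. Rab24, linked to autophagosomes, read 66.8, 89.4, 83.0, 78.6 and 78.4 against 44.1, 43.6, 41.9 and 39.9 CPM (log2 fold change 0.90 ± 0.09, adjusted p = 5.56e-06). Its exons overlap Prelid1 on the opposite strand, which was itself higher (log2 fold change 1.08, 557 against 264 CPM), and reads of the pair cannot be told apart without strand. The classic late endosome gene, Rab7, was not tested.

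The HOPS and CORVET tethers, which dock endosomes before fusion, moved unevenly. Vps39 and Vps41, the subunits particular to HOPS, and the shared subunit Vps11 rose, the shared SM protein gene Vps33a fell, and the CORVET gene Vps8 stood at 0.671 to 2.32 against 0.955 to 3.25 CPM without passing (adjusted p = 0.933). Vps39 (ENSMUSG00000027291) read 18.7, 15.8, 14.9, 15.1 and 19.2 CPM in the tumour and 6.49, 6.82, 5.81 and 8.70 CPM in the normal areas, 2.41-fold higher (log2 fold change 1.27 ± 0.15, adjusted p = 2.33e-05). Vps41 read 151, 176, 169.7, 170.3 and 161 against 119, 113, 121 and 117 CPM (log2 fold change 0.49 ± 0.05, adjusted p = 1.51e-05), and Vps11 read 108, 114, 106, 106 and 102 against 63.4, 73.8, 67.6 and 72.1 CPM (log2 fold change 0.63 ± 0.06, adjusted p = 5.39e-06). Vps33a (ENSMUSG00000029434), which holds the SNAREs, read 162, 183, 171, 183 and 161 against 253, 252, 244 and 247 CPM (log2 fold change -0.53 ± 0.05, adjusted p = 7.92e-06). None of these 4 genes had a tumour area within the range of the normal areas, and each kept its call and direction in all 17 alternatives. Among partner genes from the list of tethers, Tgfbrap1, the CORVET subunit that corresponds to Vps39, fell to 16.6 ± 4.64 from 55.3 ± 2.85 CPM (log2 fold change -1.74 ± 0.18, adjusted p = 8.38e-06).

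**Figure D2:**
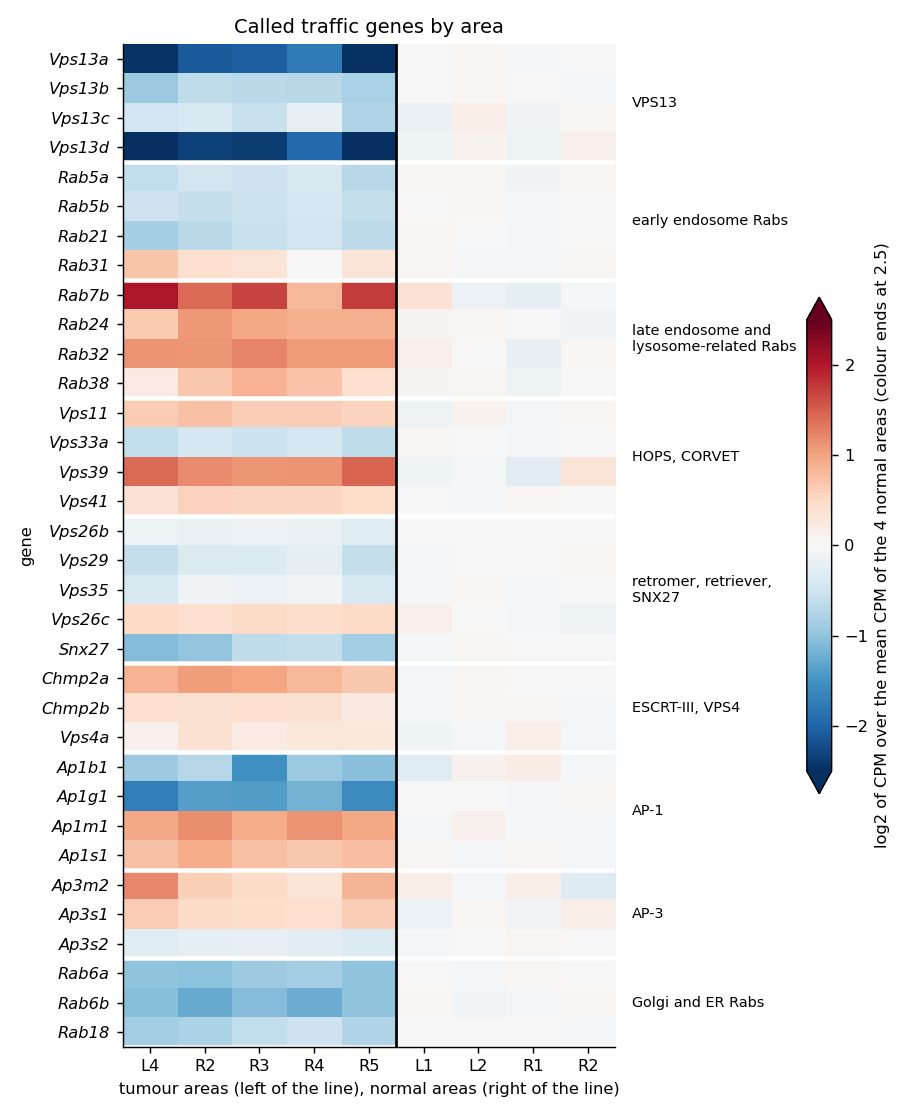
Level of 34 called genes in each of the 9 areas (columns), as log2 of CPM over the mean of the 4 normal areas (colour, which ends at 2.5 either way), grouped by role. Vps13a and Vps13d are deep blue in every tumour area, Rab32 and Ap1m1 are red in every tumour area, and within AP-1 and HOPS both colours appear.

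VPS13 genes encode long bridges that carry lipids between membranes, and all 4 fell. Their longest annotated transcripts (10838 to 15849 bases) are the longest of the family. Genes with long transcripts tended lower over all tested genes, as given below, and the part of length in these falls was not tested. Vps13d (ENSMUSG00000020220), needed for clearance of mitochondria, read 8.49, 17.6, 17.2, 22.9 and 13.2 CPM in the tumour areas and 82.9, 93.8, 81.2 and 97.2 CPM in the normal areas, 5.59-fold lower and the deepest fall of the family (log2 fold change -2.48 ± 0.22, adjusted p = 3.23e-06). Vps13a, the gene of chorea acanthocytosis, read 10.4, 13.4, 13.8, 16.8 and 10.3 against 56.7, 58.9, 56.1 and 57.3 CPM, 4.41-fold lower (log2 fold change -2.14 ± 0.13, adjusted p = 4.00e-07). For both genes every tumour area was below 25 CPM and every normal area above 50 CPM. Vps13b, a Golgi protein, read 115, 141, 137, 136 and 125 against 218, 226, 219.9 and 212 CPM (log2 fold change -0.75 ± 0.06, adjusted p = 2.57e-06). Vps13c, of contacts between the endoplasmic reticulum and late endosomes, read 22.7, 24.3, 21.6, 27.4 and 18.9 against 28.1, 35.6, 29.9 and 32.8 CPM with a narrow gap between the groups (log2 fold change -0.46 ± 0.12, adjusted p = 0.00499), and did not pass with library size alone (-0.17, adjusted p = 0.2). L4 and R5 were the lowest areas for Vps13a and Vps13d, and without both the log2 fold changes were -1.94 and -2.18.

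Retromer, the coat that retrieves receptors from endosomes, was slightly lower. Vps29, Vps35 and Vps26b fell, and Vps26a did not pass. Vps29 read 84.2, 98.5, 100.2, 108 and 84.2 against 124, 127, 127 and 131 CPM (log2 fold change -0.42 ± 0.08, adjusted p = 5.63e-04). Vps35, the core subunit, read 428, 527, 505, 532 and 430.4 against 553, 575, 553 and 566 CPM (log2 fold change -0.21 ± 0.08, adjusted p = 0.0288), with L4 and R5 well below the other tumour areas. Its call was lost without tumour R5, normal L2 or normal R2 (log2 fold change -0.22 to -0.16, adjusted p = 0.06 to 0.0724). Vps26b read 212 to 238 against 256 to 261 CPM (log2 fold change -0.18 ± 0.05, adjusted p = 0.00485) and Vps26a 274 to 333 against 332 to 345 CPM (log2 fold change -0.14 ± 0.06, adjusted p = 0.0623), and Vps26a passed without tumour R4 (-0.18, adjusted p = 0.0266) and with the area letter as a covariate (-0.17, adjusted p = 0.0472). All 4 values depend on scaling: with library size alone they read -0.14, 0.07, 0.11 and 0.14, and only Vps26a passed, as higher. Retriever, a related complex, went the other way in Vps26c, at 121, 113, 118, 116 and 118 against 93.0, 85.9, 82.9 and 78.1 CPM (log2 fold change 0.46 ± 0.06, adjusted p = 3.19e-05), while Vps35l stood at 12.1 to 14.5 against 12.0 to 16.4 CPM (adjusted p = 0.606).

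Sorting nexins bind endosomal lipids and shape or select the membrane leaving the endosome. Among the 20 tested, Snx29 had by far the deepest fall. Snx29 (ENSMUSG00000071669), a nexin of little known function, read 14.5, 19.5, 24.1, 30.1 and 16.9 CPM in the tumour and 112, 113, 106 and 114 CPM in the normal areas, 5.30-fold lower (log2 fold change -2.41 ± 0.18, adjusted p = 9.18e-07). Snx27, which links retromer to receptors such as the beta adrenergic receptor, read 291, 312, 395, 409 and 344 against 603, 633, 621 and 613 CPM (log2 fold change -0.82 ± 0.10, adjusted p = 2.77e-05), and Snx13 read 171, 196, 209.7, 215 and 182 against 372, 382, 362 and 360.3 CPM (log2 fold change -0.92 ± 0.07, adjusted p = 1.13e-06). Snx30 fell as well, to 70.2 ± 4.88 from 118 ± 4.54 CPM (log2 fold change -0.75 ± 0.06, adjusted p = 1.80e-06), and so did its partner Snx7 (log2 fold change -0.59) and Snx19 (-0.43). All 6 kept their direction and call in the 17 alternatives.

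On the rising side Snx22 read 78.1, 69.5, 68.1, 58.5 and 71.5 against 37.2, 30.0, 32.2 and 34.4 CPM (log2 fold change 1.05 ± 0.10, adjusted p = 4.57e-06). Its exons overlap Ppib on the opposite strand, which rose too (log2 fold change 0.78, 471 against 274 CPM). Snx32 read 13.1, 10.1, 9.80, 8.42 and 10.96 against 6.49, 4.77, 4.48 and 6.07 CPM (log2 fold change 0.95 ± 0.17, adjusted p = 5.68e-04), and its exons overlap Cfl1, which rose from 700.0 to 1624 CPM on the opposite strand. Reads of these pairs cannot be told apart without strand. Snx2, a retromer-associated BAR nexin, rose to 98.7 ± 4.87 from 77.1 ± 4.56 CPM (log2 fold change 0.36 ± 0.06, adjusted p = 3.02e-04), and Snx15 (0.40) and Snx33 (0.39) rose as well. Snx6, the partner of Snx2, fell to 249.7 ± 23.1 from 332 ± 6.97 CPM (log2 fold change -0.41 ± 0.07, adjusted p = 3.43e-04). Snx18 (-0.28), Snx9 (-0.32) and Snx12 (-0.22) were called lower but not with library size alone (0.01, -0.03 and 0.07). The calls of Snx9 and Snx12 were also lost with areas left out, Snx9 without normal L1 (log2 fold change -0.30, adjusted p = 0.0531) and Snx12 without tumour R5, normal L1 or normal L2 (log2 fold change -0.22 to -0.17, adjusted p = 0.0524 to 0.074).

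ESCRT-III, the filament that cuts membrane necks, and the ATPases that act on it had 3 calls among 8 tested genes, all higher. Chmp2a (ENSMUSG00000033916) read 63.9, 72.2, 69.0, 61.9 and 55.4 CPM in the tumour and 34.0, 35.6, 34.9 and 34.8 CPM in the normal areas, 1.85-fold higher (log2 fold change 0.89 ± 0.08, adjusted p = 5.27e-06). Chmp2b, whose mutation causes a form of frontotemporal dementia, read 264, 260.3, 263, 262 and 234 against 193, 203, 207 and 195 CPM (log2 fold change 0.36 ± 0.05, adjusted p = 1.10e-04), with R5 apart from the other tumour areas but above all normal ones. Vps4a, the ATPase that takes the filament apart, read 123, 149, 132, 139 and 137 against 106, 112, 128 and 112 CPM with overlapping groups (log2 fold change 0.25 ± 0.07, adjusted p = 0.00861). The other tested genes did not pass: Chmp1a (0.05 ± 0.05), Chmp3 (0.01 ± 0.05), Chmp4c (-0.12 ± 0.07), Chmp7 (0.06 ± 0.04) and Vps4b (0.02 ± 0.05). Of these, Chmp4c passed as lower without tumour R2 (-0.16), Chmp1a and Chmp7 as higher with upper quartile factors, and Chmp1a, Chmp3, Chmp7 and Vps4b as higher with library size alone. In ESCRT-II, Vps36 fell to 111 ± 14.4 from 145 ± 3.33 CPM (log2 fold change -0.38 ± 0.09, adjusted p = 0.00267), but not with library size alone (-0.10).

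AP-1, the adaptor between the Golgi and endosomes, was split between its subunits. The large subunits fell and a medium and a small subunit rose. Ap1g1 (ENSMUSG00000031731), the gamma subunit, read 107, 136, 134, 157 and 117 CPM in the tumour areas and 354, 354, 346 and 360.3 CPM in the normal areas, 2.72-fold lower (log2 fold change -1.44 ± 0.10, adjusted p = 5.41e-07). Ap1b1, the beta subunit, read 6.12, 7.05, 3.99, 6.10 and 5.63 against 9.30, 12.4, 13.1 and 11.3 CPM (log2 fold change -0.997 ± 0.17, adjusted p = 3.71e-04). Ap1m1 (ENSMUSG00000003033), the medium subunit of most cells, read 77.7, 89.4, 75.5, 86.8 and 77.3 against 38.7, 43.1, 38.5 and 38.7 CPM, 2.04-fold higher (log2 fold change 1.03 ± 0.07, adjusted p = 8.46e-07), and Ap1s1, a small subunit, 87.1, 99.3, 87.5, 83.8 and 88.9 against 53.7, 51.7, 53.3 and 51.4 CPM (log2 fold change 0.77 ± 0.06, adjusted p = 1.62e-06). In all 4 the groups stood apart. Ap1m2, the medium subunit of epithelia, read 23.7, 8.22, 22.5, 19.3 and 23.1 against 24.7, 25.9, 24.1 and 22.5 CPM, lowest in R2, and did not pass (log2 fold change -0.32 ± 0.25, adjusted p = 0.256). Ap1s3 did not pass (0.13 ± 0.07), though it did without tumour L4 (0.17). Ap1s2 was called higher (0.44 ± 0.17), and lost that without tumour L4, tumour R2, tumour R5, normal L1, normal L2 or normal R2 (log2 fold change 0.34 to 0.45, adjusted p = 0.0584 to 0.109). Ap1g2 had no count.

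AP-3 sends cargo to lysosome-related organelles. Ap3m2 rose to 30.7 ± 7.55 from 18.5 ± 2.86 CPM (log2 fold change 0.73 ± 0.18, adjusted p = 0.00439), highest in L4 and R5, and Ap3s1 read 80.3, 72.2, 71.2, 69.0 and 79.3 against 46.5, 53.2, 49.0 and 57.7 CPM (log2 fold change 0.53 ± 0.08, adjusted p = 1.50e-04). Ap3s2, the paralog of Ap3s1, fell to 183 ± 8.14 from 221 ± 5.74 CPM (log2 fold change -0.28 ± 0.05, adjusted p = 3.58e-04), though it read 0.01 with library size alone. Ap3d1 (0.12) and Ap3m1 (0.14) were called higher by little, and their calls were lost, Ap3d1 without normal L1, normal R1 or normal R2 (log2 fold change 0.10 to 0.12, adjusted p = 0.0575 to 0.102) and Ap3m1 without tumour R2, normal L1, normal L2 or normal R2 (log2 fold change 0.11 to 0.14, adjusted p = 0.0592 to 0.136). With the area letter as a covariate Ap3m1 did not pass either (0.13, adjusted p = 0.077). Ap3b1 stood at 130.4 ± 6.72 against 130.4 ± 1.98 CPM (adjusted p = 0.99).

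AP-2, the adaptor of endocytosis, could be read only in part. Ap2a2 stood at 499 to 611 against 601 to 636 CPM without passing (log2 fold change -0.13 ± 0.07, adjusted p = 0.105), though it was called lower with the area letter as a covariate (-0.17, adjusted p = 0.0362). Ap2m1, which has near-identical copies elsewhere, held 1.45 to 3.96 against 1.5002 to 3.49 CPM (adjusted p = 0.79), and Ap2s1 had no count. Ap2a1 was called lower (-0.60 ± 0.22) at 2.23 to 3.34 against 3.03 to 5.46 CPM. That call was lost without tumour L4, tumour R2 or normal L2 (log2 fold change -0.55 to -0.39, adjusted p = 0.0554 to 0.153), with -0.39 the value without normal L2. In AP-4, Ap4s1 was called higher (0.24 ± 0.09) and lost that without tumour R2, normal L1, normal L2, normal R1 or normal R2 (log2 fold change 0.21 to 0.25, adjusted p = 0.0555 to 0.094).

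Rab GTPases of the Golgi and the endoplasmic reticulum had 3 falls and 1 rise among 6 tested genes. Rab6a (ENSMUSG00000030704), of retrograde Golgi transport, read 263, 259.6, 282, 294 and 264 CPM in the tumour and 528, 524, 540.3 and 534 CPM in the normal areas (log2 fold change -0.96 ± 0.05, adjusted p = 1.55e-07). Rab6b, its paralog, read 112, 98.8, 111, 99.0 and 117 against 244, 226, 229.9 and 242 CPM, 2.19-fold lower (log2 fold change -1.13 ± 0.06, adjusted p = 1.86e-07). In both genes the tumour areas lay in a narrow band far below the normal areas. Rab18, of lipid droplets and the endoplasmic reticulum, read 415, 437, 495, 530.0 and 452 against 754, 765, 768 and 743 CPM (log2 fold change -0.70 ± 0.07, adjusted p = 1.05e-05). Rab43 rose slightly, to 262 ± 16.8 from 219 ± 3.09 CPM (log2 fold change 0.26 ± 0.05, adjusted p = 0.00141). Rab1b (0.12 ± 0.07) and Rab2a (-0.05 ± 0.05) did not pass, though Rab1b passed as higher without tumour L4 (0.17), with upper quartile factors and with library size alone (0.41), and Rab2a with library size alone (0.24). Among the Arf GTPases, which recruit coats, Arf5 rose to 80.5 ± 7.87 from 42.3 ± 2.74 CPM (log2 fold change 0.93 ± 0.09, adjusted p = 4.70e-06), and Arf2 stood at 128 ± 14.4 against 127 ± 1.53 CPM (adjusted p = 0.957). In the GARP tether, which receives vesicles at the Golgi, Vps52 rose to 38.8 ± 2.95 from 22.5 ± 2.01 CPM (log2 fold change 0.78 ± 0.09, adjusted p = 2.23e-05). Its exons overlap Rps18, a ribosomal gene listed at 0 in every area.

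Among the Rab GTPases of recycling and secretion Rab37 and Rab8b varied between the tumour areas, while Rab12 and Rab10 did so less. Rab37 (ENSMUSG00000020732), of regulated secretion, had the largest rise of the family, at 20.3, 12.8, 7.81, 9.73 and 18.9 CPM in the tumour and 3.46, 3.14, 3.16 and 3.44 CPM in the normal areas, 4.23-fold higher (log2 fold change 2.08 ± 0.31, adjusted p = 1.29e-04). L4 and R5 were highest. The same areas led the tumour areas in the sums of leukocyte (3340 and 2399 CPM), fibroblast (2744 and 1776 CPM), urothelial (1158 and 220.4 CPM) and fat markers (144 and 31.8 CPM), whose part in the rise was not tested. Rab8b, of surface delivery, showed the same order at its top, at 225, 158, 138, 128 and 179.9 against 98.0, 98.3, 96.0 and 98.4 CPM (log2 fold change 0.76 ± 0.15, adjusted p = 7.74e-04). Without L4 and R5 the log2 fold changes were 1.63 for Rab37 and 0.55 for Rab8b, and both passed. Rab12 rose evenly, to 160.0 ± 9.12 from 121 ± 3.51 CPM (log2 fold change 0.40 ± 0.05, adjusted p = 6.34e-05). Rab10, of polarised delivery, fell to 584 ± 21.8 from 760.1 ± 18.2 CPM (log2 fold change -0.38 ± 0.05, adjusted p = 6.10e-05), but not with library size alone (-0.09, adjusted p = 0.163).

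Area L4 was also the highest area in 3 further Rab genes, chosen after their values were seen, as it was in Rab37, Rab7b and Rab8b. Rab27b, known in umbrella cells of the urothelium and in secretory cells, read 42.2, 11.2, 10.5, 6.53 and 17.8 CPM in the tumour and 9.95, 9.001, 4.82 and 7.90 CPM in the normal areas and did not pass (log2 fold change 1.17 ± 0.51, adjusted p = 0.0589), but did without tumour R2 (1.30), R3 (1.31) or R4 (1.38), with the area letter as a covariate (1.43, adjusted p = 0.00359), and with DESeq2, upper quartile factors or library size alone. Rab15, of recycling endosomes, read 42.6, 5.03, 14.2, 7.84 and 14.6 against 14.5, 13.5, 17.3 and 14.6 CPM (log2 fold change 0.18 ± 0.51, adjusted p = 0.757). Without L4 and R5 it was called lower (-0.73, adjusted p = 0.0342), the opposite sign. Rab25, the epithelial Rab11 relative, read 27.1, 10.9, 17.1, 11.04 and 15.8 against 10.4, 11.9, 12.3 and 9.11 CPM (log2 fold change 0.58 ± 0.27, adjusted p = 0.0684), and passed as higher without tumour R2 (0.71) or R4 (0.70), with the area letter as a covariate (0.70, adjusted p = 0.0183), and with upper quartile factors or library size alone. In all 3 genes L4 was the highest of the 9 areas, and among the tumour areas L4 also held the highest sums of urothelial, leukocyte, fibroblast, endothelial (664 CPM) and fat markers and the lowest of proximal tubule markers (24599 CPM). The part of these in the values was not tested. Rab11a (-0.13 ± 0.06) and Rab11b (0.20 ± 0.13), the main recycling Rabs, did not pass. Each passed without tumour R4, Rab11a as lower (-0.17) and Rab11b as higher (0.28), and Rab11a also with the area letter as a covariate (-0.16, adjusted p = 0.0466), while with library size alone both passed as higher (0.16 and 0.50).

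**Figure D3:**
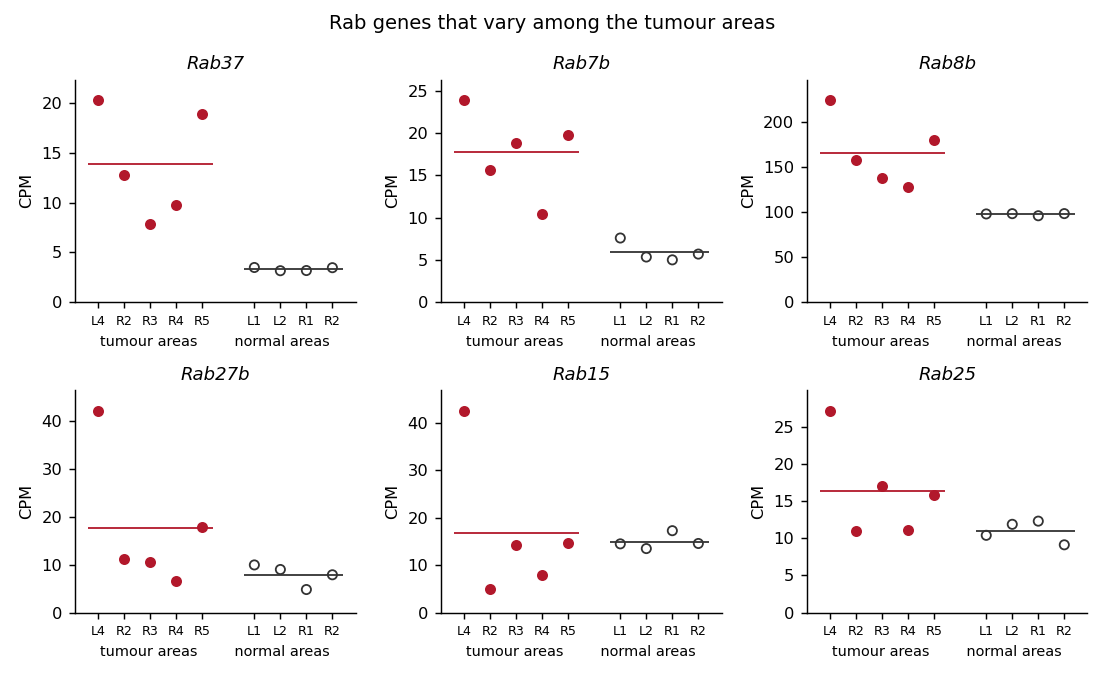
CPM (y axes from 0) of 6 Rab genes in the 5 tumour areas (filled) and 4 normal areas (open), with lines at the group means. L4 is the highest area in each panel, at 42.2 CPM for Rab27b and 42.6 CPM for Rab15, while the normal areas of Rab37 and Rab8b lie close together.

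Some members with a Rab number are effectors or regulators of the GTPases. Rab11fip4, an effector of Rab11, fell to 294 ± 55.7 from 466 ± 7.75 CPM, lowest in L4 (log2 fold change -0.67 ± 0.12, adjusted p = 6.67e-04). Rab3gap1, a subunit of the GTPase activating complex of Rab3 and an exchange factor of Rab18, was called lower (-0.29 ± 0.06) but read 0.0022 with library size alone, and its partner Rab3gap2 did not pass (0.16 ± 0.09). Rab3ip, an exchange factor of Rab8, did not pass, at 367 ± 54.6 against 431 ± 11.5 CPM (adjusted p = 0.0588), but was called lower without tumour R3 (-0.27) or R4 (-0.29), with the area letter as a covariate (-0.31, adjusted p = 0.0118), and with RLE factors or DESeq2. Rab11fip1 was called lower (-0.41 ± 0.16), and lost that without tumour R3, tumour R4, tumour R5, normal L1, normal L2 or normal R2 (log2 fold change -0.42 to -0.38, adjusted p = 0.0553 to 0.0743).

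Of the 8 tested syntaxins 2 were higher and 4 lower, and of the 3 VAMPs 1 was lower. Stx16, a Golgi syntaxin, read 0.974, 2.01, 2.72, 3.92 and 1.52 CPM in the tumour and 5.41, 4.36, 4.15 and 7.49 CPM in the normal areas, 2.37-fold lower at a low level (log2 fold change -1.25 ± 0.35, adjusted p = 0.00831). Stx6, its partner in the same SNARE complex, rose to 112 ± 5.95 from 91.6 ± 4.42 CPM (log2 fold change 0.29 ± 0.06, adjusted p = 9.72e-04). Stx7, of late endosome fusion, fell to 458 ± 29.4 from 580.4 ± 4.81 CPM (log2 fold change -0.34 ± 0.06, adjusted p = 2.88e-04), and Stx17, of autophagosome fusion, to 51.2 ± 2.32 from 67.0 ± 2.54 CPM (log2 fold change -0.39 ± 0.06, adjusted p = 1.57e-04). Vamp2, of regulated exocytosis, fell to 210.2 ± 24.0 from 266 ± 4.83 CPM (log2 fold change -0.34 ± 0.08, adjusted p = 0.00315). With library size alone Stx7 (-0.06), Stx17 (-0.10) and Vamp2 (-0.05) did not pass. Stx3, of apical delivery, was called lower (-0.63 ± 0.23) and lost that without tumour L4, tumour R3, tumour R5, normal L2 or normal R1 (log2 fold change -0.62 to -0.49, adjusted p = 0.0575 to 0.103). Stx18 was called higher (0.36 ± 0.13) and lost that without tumour L4, tumour R5, normal L1 or normal L2 (log2 fold change 0.28 to 0.34, adjusted p = 0.0556 to 0.105) and with the area letter as a covariate (0.34, adjusted p = 0.0516). Vamp4 stood at 32.3 to 37.6 against 27.9 to 36.8 CPM (adjusted p = 0.919).

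A last set of calls lay near the threshold and was lost with several different areas left out. Rab14 (0.67 ± 0.26, at 1.27 to 2.59 against 1.16 to 1.51 CPM) lost its call without normal L1, normal L2, normal R1 or normal R2 (log2 fold change 0.59 to 0.73, adjusted p = 0.0574 to 0.101). Rab28 (0.15 ± 0.06) lost it without tumour R3, tumour R4, normal L1, normal L2 or normal R2 (log2 fold change 0.12 to 0.15, adjusted p = 0.0534 to 0.117), and Rab5if (0.30 ± 0.13) without tumour R2, tumour R3, tumour R4, normal L1, normal L2 or normal R1 (log2 fold change 0.22 to 0.31, adjusted p = 0.0724 to 0.155). Rab40b (-0.55 ± 0.22) lost it without tumour R2, tumour R3, tumour R4, tumour R5, normal L1, normal R1 or normal R2 (log2 fold change -0.59 to -0.40, adjusted p = 0.0531 to 0.0992). With the area letter as a covariate Rab40b (-0.51, adjusted p = 0.0737) and Rab5if (0.22, adjusted p = 0.0834) did not pass either. Vps45, the SM protein of early endosome fusion (0.29 ± 0.10), lost it without tumour L4, tumour R3, normal L1, normal R1 or normal R2 (log2 fold change 0.26 to 0.28, adjusted p = 0.0518 to 0.0759). Vps72 rose to 17.7 ± 3.12 from 10.2 ± 2.53 CPM (log2 fold change 0.79 ± 0.19, adjusted p = 0.00286) and kept its call with each area left out in turn.

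The members not yet described did not pass. Of the nexins these were Snx4 (0.08 ± 0.05), Snx8 (-0.14 ± 0.07), Snx11 (0.18 ± 0.37), Snx16 (0.21 ± 0.33) and Snx24 (-0.10 ± 0.12). Snx8 passed as lower without tumour R4 (-0.18) but read 0.15 with library size alone, and Snx4 passed as higher with library size alone (0.37). Of the SNAREs they were Stx8 (0.39 ± 0.22), Stx12 (-0.12 ± 0.05) and Vamp1 (0.53 ± 0.43), a synaptic VAMP at 1.09 to 2.47 against 0.649 to 2.63 CPM, which passed without normal R2 (1.09). Stx12 (adjusted p = 0.0504 in edgeR's quasi-likelihood test) was called lower in 6 alternatives (-0.14 to -0.12). These were RLE factors, the 1 CPM filter, DESeq2, and leaving out tumour L4, normal R2, or L4 and R5 together. With library size alone Stx12 (0.18) and Stx8 (0.68) passed as higher. The others were Rab3b (-0.37 ± 0.27), Rab35 (0.07 ± 0.07), Vps37a of ESCRT-I (-0.19 ± 0.16) and the GARP subunits Vps51 (0.12 ± 0.17) and Vps54 (-0.54 ± 0.30). Vps54 passed as lower without normal L1 (-0.74), and Rab35 as higher with library size alone (0.37).

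Paralogs within a family were compared by the log2 ratio of their CPM (0.5 added to each) within each area. The added 0.5 weighs most on genes of few CPM, such as Stx16, Vamp1 and Ap2a1. Of 29 pairs, 15 differed between tumour and normal areas at an adjusted p under 0.05 (2-sided exact permutation test over all splits of the areas, Benjamini-Hochberg over the 29 pairs), all at the smallest p that the test gave, 0.0159 before and 0.0307 after adjustment. In these 15 the ratios of the groups did not overlap, and any pair without overlap gets this p. The share among other pairs of genes was not computed, and taken singly 67.8% of all tested genes did not overlap. The count of 15 is therefore no result about paralogs as such. Pairs within a set, such as the VPS13 genes, share members and are not independent. Ap1m1 over Ap1m2 moved by 1.43, from a range of 0.64 to 0.77 over the normal areas to one of 1.69 to 3.37 over the tumour areas, where R2 was highest. Stx6 over Stx16 moved by 1.45, and Ap3s1 over Ap3s2 by 0.80. Snx6 over Snx32 moved by -1.296, from a range of 5.56 to 6.07 to one of 3.96 to 4.91. Chmp2a over Chmp2b moved by 0.51 and Rab32 over Rab38 by 0.54, so in these pairs, in which both genes rose, the first rose more. Among VPS13 genes the ratio of Vps13c to Vps13d moved by 2.05, and that of Vps13a to Vps13d by 0.39. The 2 members of 5 pairs were called in opposite directions: Ap3s1 and Ap3s2, Snx6 and Snx32, Snx9 and Snx33, Snx18 and Snx33, and Stx6 and Stx16. Rab6a over Rab6b moved by 0.16 (adjusted p = 0.11) and Vps26a over Vps26b by 0.04 (adjusted p = 0.563), neither past the threshold.

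**Figure D4:**
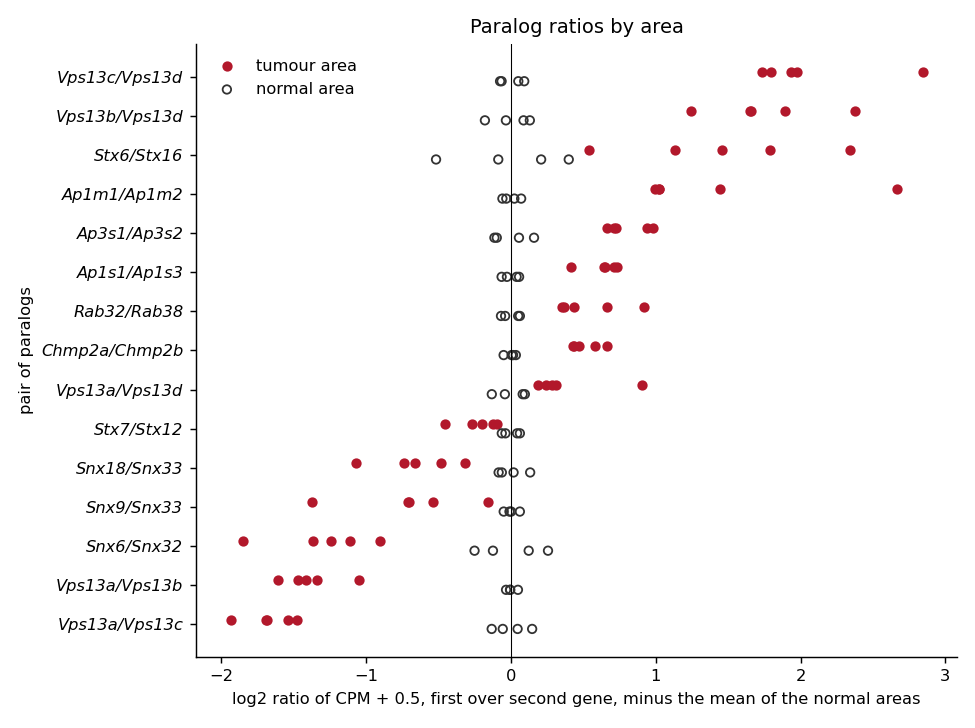
Log2 ratio of the CPM (0.5 added) of the first gene to that of the second in each tumour (filled) and normal (open) area, less the mean of the normal areas (x axis), for the 15 pairs whose groups did not overlap (y axis). The ratio of Vps13c to Vps13d moved furthest, by 2.05 on average, and that of Stx7 to Stx12 least, by -0.23.

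Genes of the same pathways outside the symbol rule were followed from 10 lists, with 159 tested genes. Of these 119 were called (74.8%, against 74.6% of all tested genes): 50 were higher (31.4%, against 39.3% of all tested genes) and 69 lower (43.4%, against 35.3%), with a median log2 fold change of -0.11. With library size alone 76 were higher and 48 lower. Of 9 tested genes of proximal tubule endocytosis 6 fell and 3 rose (median -0.81). Lrp2, megalin, fell to 3582 ± 1000.3 from 7777 ± 163 CPM (log2 fold change -1.12 ± 0.20, adjusted p = 4.24e-04), and Cubn, cubilin, to 827 ± 235 from 1525 ± 44.0 CPM (log2 fold change -0.88 ± 0.19, adjusted p = 0.00188). Clcn5, the endosomal chloride exchanger of Dent disease, read 199, 254, 326, 346 and 257 against 998, 1091, 1022 and 1088 CPM (log2 fold change -1.93 ± 0.14, adjusted p = 9.70e-07), and Dab2, the adaptor of megalin, 9.33, 8.56, 8.53, 9.73 and 7.91 against 13.8, 16.2, 16.1 and 14.0 CPM (log2 fold change -0.77 ± 0.11, adjusted p = 1.04e-04). Amn, the anchor of cubilin, rose to 136 ± 28.9 from 92.7 ± 7.81 CPM (log2 fold change 0.55 ± 0.15, adjusted p = 0.00635). Lrp2 and Cubn are also in the proximal tubule marker sum given above.

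Of 20 clathrin and accessory genes 11 fell and 4 rose (median -0.49), so 75% were called, near the 74.6% of all tested genes. Dnajc6, the uncoating factor auxilin, fell from 15.6 ± 0.955 to 0.922 ± 0.273 CPM (log2 fold change -4.07 ± 0.19, adjusted p = 5.89e-08), and Aak1, the kinase of AP-2, from 30.3 ± 1.47 to 5.23 ± 0.853 CPM (log2 fold change -2.53 ± 0.13, adjusted p = 1.03e-07). Eps15l1 (0.53 ± 0.08) and the AP-5 gene Ap5z1 (0.44 ± 0.08) rose. Of 16 other SNAREs and SNARE regulators 11 fell (68.8%, against 35.3% of all tested genes), led by Stxbp4 (-1.59 ± 0.10) and the calcium sensor Syt7 (-1.08 ± 0.14), and Sec22a and Scfd1 rose (0.53 ± 0.08 and 0.48 ± 0.12). Of 19 tethers 52.6% were called: 7 fell, among them Cog5 of the Golgi (-1.49 ± 0.15), and 3 rose, among them Cog2 (0.41 ± 0.07).

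Regulators went both ways, as did all tested genes, of which 39.3% were called higher and 35.3% lower. Of 25 Rab regulators 12 rose and 8 fell, with Tbc1d9 at 16.0 ± 4.64 against 5.28 ± 1.54 CPM (log2 fold change 1.62 ± 0.26, adjusted p = 2.13e-04), the Rab5 exchange factor Rin1 at 1.29 and the Rab35 exchange factor Dennd1b at -1.05 on the log2 scale. Of 27 Arf regulators and Arf-like proteins 10 rose and 11 fell, among them the GTPases Arl8a (higher) and Arl8b, Sar1a and Sar1b (lower). Psd4, an Arf6 exchange factor, rose from 0.693 ± 0.362 to 10.4 ± 4.36 CPM (log2 fold change 3.94 ± 0.45, adjusted p = 1.94e-05), and Acap1, an Arf6 GTPase activating protein, from 0.492 ± 0.355 to 5.36 ± 2.64 CPM (log2 fold change 3.43 ± 0.52, adjusted p = 1.52e-04), while Gbf1, of the Golgi, fell (-1.21 ± 0.15). Both Psd4 and Acap1 were highest in L4 and R5, as were the leukocyte, fibroblast, urothelial and fat marker sums, whose part was not tested. Of 14 phosphoinositide enzymes and their partners, such as Vac14 and Becn1, 5 rose and 4 fell. Inpp5b went from 57.4 ± 2.89 to 14.4 ± 0.475 CPM (log2 fold change -1.99 ± 0.07, adjusted p = 2.26e-08), Pik3c2a from 471 ± 21.8 to 143 ± 8.67 CPM (log2 fold change -1.72 ± 0.06, adjusted p = 2.14e-08), and Pik3c2b rose (1.17 ± 0.15).

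Partners of the sorting complexes also had calls both ways, to be read beside the 39.3% of all tested genes called higher and the 35.3% called lower. Of 12 partners of retromer and retriever 4 rose, led by Washc1 (0.81 ± 0.06) and Commd4 (0.81 ± 0.09), and 5 fell, led by Commd2 (-1.15 ± 0.22) and Ccdc93 (-0.71 ± 0.07). Of 10 other ESCRT genes 3 rose and 4 fell, with Ptpn23 at 134 ± 13.5 against 64.8 ± 3.24 CPM (log2 fold change 1.05 ± 0.08, adjusted p = 1.17e-06), Stambp rising (0.45 ± 0.07) and Ubap1 (-0.98 ± 0.13) and Mvb12b (-0.64 ± 0.04) falling. Of 10 tested genes of a lysosome list, which also holds Mitf of the MiT family, 5 rose and 4 fell, Mitf (-0.18 ± 0.06) among the falls. Npc2 (0.81 ± 0.09) and Cd63 (0.66 ± 0.12) rose, Clcn7 (-0.81 ± 0.17) fell, and the fall of Lamp2 (-0.38 ± 0.11) did not pass with library size alone (-0.10).

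Areas differed in how far they stood from normal. Among the 77 called members L4 was the tumour area farthest from the normal mean in 35 (45.5%), and R4 the nearest in 40 (51.9%). Over all 5236 called genes these shares were 42.2% and 40.4%. L4 had the lowest and R4 the highest sum of proximal tubule markers among the tumour areas, 24599 and 45042 CPM.

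Transcript length moved with the change. Across the 114 tested members Spearman's rho between log2 fold change and the length of the longest annotated transcript was -0.44, and across 7015 tested genes with an annotated length it was -0.34. With the percentage of G and C the values were 0.29 and 0.22. These are correlations across genes that share the same 9 libraries, so they are descriptions without a test. The 38 shortest members (up to 2645 bases) had a median log2 fold change of 0.30 and the 38 longest (over 4135 bases) one of -0.28, and all tested genes of those lengths 0.37 and -0.29. The VPS13 genes, all lower, have the longest transcripts of the family. In AP-1, Ap1g1 (6899 bases) and Ap1b1 (4085) fell, and Ap1m1 (2084), Ap1s1 (1353) and Ap1s2 (3199) rose. The part of length in these changes was not tested. Annotated exons of 36 tested members overlap another gene, and 13 tested members have a near-identical copy elsewhere, among the called genes Rab5b, Rab6a, Ap3s1, Ap3m1 and Snx2, and the way the authors assigned shared reads bears on their counts.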

How the data were processed

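The deposited values are whole counts of reads per gene, 1 table over the 9 areas. Libraries were poly(A)-selected and unstranded and were sequenced as 50-base pairs, per the labels' protocols. Per the submitters' processing notes the authors used STAR 2.3, HTSeq and edgeR with mm9. Neither the gene annotation, nor how strand was set, nor a gene filter is named: each is not given in the sources used here. Of 14052 identifiers, 14026 were matched to a symbol.

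The counts were fitted with edgeR 4.0.16 (R 4.3.3): TMM factors, filterByExpr (minimum count 10, total 15), the quasi-likelihood test of tumour against normal areas with no covariate, and Benjamini-Hochberg adjustment over the 7020 tested genes. The script was tested on simulated data. A standard error is the log2 fold change divided by the root of its F statistic. Paralog ratios were tested with scipy 1.17.1. Near-identical copies (95% identity over 300 bases, the length chosen after seeing the matches) and exon overlaps were sought in GENCODE M21 (GRCm38). Since the authors' build differs, no coordinate was joined to their counts.

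The members and lists were chosen with earlier results of these data known. The genes described are, per family, up to 5 called genes with the largest change each way (at least 5 CPM in the higher group), the most abundant gene not called and paralogs called in opposite directions. Per outside list they are up to 2 called genes each way by the same measure, and genes described beyond these were chosen after their values were seen. The 17 alternatives were other scalings (RLE, upper quartile, library size alone), no filter, a filter of 1 CPM in 4 libraries, DESeq2 1.42.0, the area letter as covariate, each area left out, and L4 and R5 left out together.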

Additional observations from a re-analysis of the deposited data

Results flagged for a closer look

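In 8 of 128 groups of areas examined (the 64 members that the rule for described genes takes, 2 groups each), 1 area stood apart from the others of its group, by a gap that chance gives in about 1 of 20 groups. Of the 8, 3 were in normal R1. Stx6 read 98.2 CPM in normal R1 and 88.9 to 89.9 CPM in the other normal areas, Rab8b 96.0 against 98.0 to 98.4 CPM, and Snx8 179 against 184 CPM in each. Ap1m1 read 43.1 CPM in normal L2 against 38.5 to 38.7 CPM, and Vps52 25.5 against 21.2 to 21.9 CPM in the same area. Arf2 read 129.6 CPM in normal L1 against 126.3 to 126.8 CPM. Among the tumour areas Chmp2b read 234 CPM in R5 against 260.3 to 264 CPM, and Stx12 read 238 CPM in L4 against 215 to 219 CPM. Without tumour L4 Stx12 passed as lower (-0.13, adjusted p = 0.0147 in edgeR's quasi-likelihood test), and it passed as lower without normal R2 (-0.14).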

How the results depend on the processing

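Of the 77 called members 50 (29 higher, 21 lower) kept call and direction under all 17 alternatives. Of the other 27, 16 lost the call when 1 area was left out, and 11 changed only with library size alone. Of the 37 members not called, 10 were not called in any. The counts over all members and over the outside lists moved by over 1.5 times only with library size alone, which gave 60 members higher and 21 lower, and 76 genes of the outside lists higher and 48 lower. With 1 area left out, 30 to 38 members were higher and 34 to 41 lower. Counts within single families, which are small, moved more often, as the report gives. Library size alone turned the sign of Ap2a2 (0.16), Ap3b1 (0.29), Ap3s2 (0.012), Rab11a (0.16), Rab2a (0.24), Rab3gap1 (0.0022), Snx12 (0.071), Snx18 (0.0103), Snx8 (0.15), Stx12 (0.18), Vps26a (0.14), Vps26b (0.11) and Vps35 (0.074), since it raises the fold change of every gene. Rab15 read -0.73 without L4 and R5, the cause of which was not tested. A further 42 sign changes, in 15 members, were between values that passed in neither fit. No paired analysis was possible because tumour and normal areas came from mice of different genotype and strain, and the name R2 in both groups marks no pair. Members with few reads, such as Vps8, cannot show small differences at this depth. Poly(A) selection, shared reads of overlapping genes and the unknown strand setting limit the reading of single genes.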
